A study of Mus musculus with 30 samples.

Results

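Skeletal muscle genes were followed array by array through inguinal mammary glands of mice, as a proposed measure of muscle tissue carried along with the gland. Acta1, Tnnc2 and Tnnt3 had their 4 highest values on the same 4 arrays. Pvalb was high on these too but had its highest values on other arrays, and Mustn1 shared 1 of them. The rule named 10 genes: Acta1, Ckm, Mb, Tnnc2, Tnnt3, Myh4, Mylpf, Pvalb, Atp2a1 and Mustn1. Those with a probe in the platform annotation were kept, which gave 5 of 10: Acta1, Tnnc2, Tnnt3, Pvalb and Mustn1. All 5 entered the fit, among 11463 genes tested. The genes were chosen from values of these same arrays, the IFNAR1-/- glands included, so their height in that group is described here and not tested. Ckm, Mb, Myh4, Mylpf and Atp2a1 were not analysed here.

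The glands came from mice of 19 weeks on a 129sv background, in 4 groups. There were 7 WT glands and 8 IFNAR1-/- glands, which lack a chain of the type I interferon receptor. A further 6 were Her2/Neu+, carrying a receptor tyrosine kinase oncogene, and 9 were Her2/Neu+/IFNAR1-/-, carrying the oncogene and lacking the receptor chain. The labels name neither the promoter nor the line of the Her2/Neu transgene. Each value is a log2 ratio of gland RNA (Cy5) to the universal mouse reference RNA (Cy3) shared by all arrays, so 0 means the level of the reference. Values stop at 6, which is 64-fold. Arrays are called by group and sample number. The labels number the samples separately and say nothing more of their source, so a p-value here reflects the spread among these samples, which may be technical.

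Each array held 17485 to 20801 values, and between 2639 and 10385 of them were the same number, digit for digit, as another probe's on that array. Such values are called repeated here, and the others measured; 75.0% of repeated values lay within 0.3 of 0, and how they arose is not given in the sources used here. The targeted gene did not separate the labels: Ifnar1 ran from -0.47 to 2.32 in WT and from -1.03 to 1.55 in IFNAR1-/- glands. Erbb2 ran from -0.37 to 0.63 in WT and from -0.00 to 1.13 in Her2/Neu+ glands. The fat pad's defining markers were present: the adipokine gene Adipoq and the fatty acid carrier gene Fabp4 stood at the upper limit of 6 on 30 of 30 arrays.

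Skeletal muscle fibres shorten when myosin of the thick filament pulls on actin of the thin filament. Calcium released from the sarcoplasmic reticulum binds troponin C, and the troponin and tropomyosin complex then frees the actin surface for myosin. Fast fibres carry their own troponin isoforms, the calcium buffer parvalbumin and a large store of glycolytic enzymes. The inguinal mammary fat pad lies against the skin and body wall, where skeletal muscle is close at hand, and muscle is not a component of the gland's epithelium or fat.

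Acta1 and Tnnc2 had the same 4 arrays as their highest, while the highest values of Pvalb and Mustn1 fell mostly on other arrays. Mustn1 had no value on IFNAR1-/- 41 and 42. The stretches around the start sites of these 4 genes are shown as background and were not tested against the values. They are taken from RefSeq (build GRCm38.p6) and run from 250 bases before to 50 bases after the start site, 5′ to 3′ on the gene's strand, with the matches to the motifs searched in capitals. Acta1 lies at chr8:123894726-123895025 (minus strand), Tnnc2 at chr2:164779685-164779984 (minus), the first of the table's Pvalb entries at chr15:78206351-78206650 (minus) and Mustn1 at chr14:30879007-30879306 (plus). No entry for Tnnt3 is shown.
Acta1: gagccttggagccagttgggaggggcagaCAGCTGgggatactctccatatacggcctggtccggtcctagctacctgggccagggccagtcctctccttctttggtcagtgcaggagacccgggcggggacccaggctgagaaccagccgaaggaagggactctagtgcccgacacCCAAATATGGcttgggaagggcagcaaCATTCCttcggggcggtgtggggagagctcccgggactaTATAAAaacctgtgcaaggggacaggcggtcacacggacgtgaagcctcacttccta
Tnnc2: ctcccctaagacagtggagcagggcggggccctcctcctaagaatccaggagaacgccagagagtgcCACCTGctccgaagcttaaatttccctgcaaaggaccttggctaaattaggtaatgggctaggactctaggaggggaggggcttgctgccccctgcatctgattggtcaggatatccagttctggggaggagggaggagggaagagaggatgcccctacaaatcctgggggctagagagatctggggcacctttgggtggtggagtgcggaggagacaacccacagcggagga
Pvalb: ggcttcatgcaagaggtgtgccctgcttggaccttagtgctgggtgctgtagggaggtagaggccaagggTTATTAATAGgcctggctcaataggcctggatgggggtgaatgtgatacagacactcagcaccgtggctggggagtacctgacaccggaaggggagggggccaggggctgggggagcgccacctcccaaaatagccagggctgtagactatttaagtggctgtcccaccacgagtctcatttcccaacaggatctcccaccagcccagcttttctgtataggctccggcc
Mustn1: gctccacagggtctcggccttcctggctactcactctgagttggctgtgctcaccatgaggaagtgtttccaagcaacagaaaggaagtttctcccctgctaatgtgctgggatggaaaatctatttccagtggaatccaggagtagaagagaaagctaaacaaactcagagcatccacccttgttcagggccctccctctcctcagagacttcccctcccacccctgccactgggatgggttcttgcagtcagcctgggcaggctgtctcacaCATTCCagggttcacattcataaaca

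With the start site counted as 0, the Acta1 stretch held the E-box form CAGCTG at -221, a CArG box at -73, CATTCC at -46 and TATAAA at -7. The E-box is the kind of site read by the MyoD family, the CArG box by serum response factor, and CATTCC is the core of the site read by TEAD factors. The Tnnc2 stretch held the E-box form CACCTG at -183. The Pvalb stretch held a MEF2 site at -180, and the Mustn1 stretch held CATTCC at 24. Both strands were searched. Among 32851 promoters of the same length, CAGCTG was found in 16.3%, CACCTG in 20.2%, TATAAA in 13.6%, CATTCC in 14.7%, the CArG box in 1.63% and the MEF2 site in 1.86%. Both E-box forms are cases of CANNTG, which 72.3% held. The matches are letters in these windows and describe no binding.

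Acta1 encodes skeletal alpha-actin, the main actin of the adult thin filament, and lies on chromosome 8 (123891758 to 123894775). It was the member with the most measured values, 15 of 30. On IFNAR1-/- arrays it was 4.48 on array 41, 4.31 on 42 and 5.72 on 44, against 0.74 on 39, -0.05 on 45, -0.10 on 46, 0.87 on 47 and -0.35 on 50. All 8 of these were measured. Arrays 41, 42 and 44 stood at 22.3, 19.9 and 52.6 times the reference, and the gap below them, from 4.31 to 0.87, was 10.9-fold.

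In WT glands Acta1 was -2.10 on array 59 and -3.27 on array 60, and the other 5 values, -0.31 to -1.16, were repeated. Among Her2/Neu+ arrays it was 3.60 on 113, -2.92 on 118 and -0.89 on 120, with repeated values from -1.53 to -0.03 on the remaining 3. Among Her2/Neu+/IFNAR1-/- arrays it was 3.98 on 106 and 0.43 on 104, and the remaining 7 values, -0.41 to -0.01, were repeated. So a single gland in each oncogene group, 113 and 106, had a high value, and both lay below IFNAR1-/- 41, 42 and 44. The 4 groups overlapped in their lower values.

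Tnnc2, on chromosome 2 (164777161 to 164779734), encodes the fast fibres' troponin C, the calcium sensor of the thin filament. It was 4.65 on IFNAR1-/- 41, 4.17 on 42 and 4.19 on 44, whereas the highest of the other 5 IFNAR1-/- arrays had 0.10. It was 4.12 on Her2/Neu+/IFNAR1-/- 106 and 3.48 on sample107, with 6 repeated values between -0.21 and -0.00 and 1 blank in the rest of that group. Her2/Neu+ glands had 1.76 on 115, -1.07 on 118 and -2.25 on 120, 2 repeated values near 0 and 1 blank. In WT the measured value was 1.75 on array 59, and the other 6 were repeated, from -0.80 to -0.00. The 3 highest IFNAR1-/- arrays of Acta1 were thus the 3 highest of Tnnc2 too. Her2/Neu+ 113, at 3.60 for Acta1, was at a repeated -0.00 for Tnnc2.

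Tnnt3, on chromosome 7 (142498771 to 142516213), encodes the fast troponin T, which ties the troponin complex to tropomyosin. Its first probe gave 5.85 on IFNAR1-/- 41, the limit of 6 on 42 and 5.93 on 44. The second probe gave 4.31, 4.81 and 5.52 on the same arrays. Her2/Neu+/IFNAR1-/- 106 had 5.07 and 4.33 by the first and second probe. The probes disagreed on Her2/Neu+/IFNAR1-/- 105, with 5.69 by the first and a repeated -0.02 by the second. Every Tnnt3 value of WT and Her2/Neu+ glands was repeated, so no level in them was measured by either probe. Tnni2, the fast troponin I gene, lies near Tnnt3 on chromosome 7, with 54360 bases between them.

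**Figure D1:**
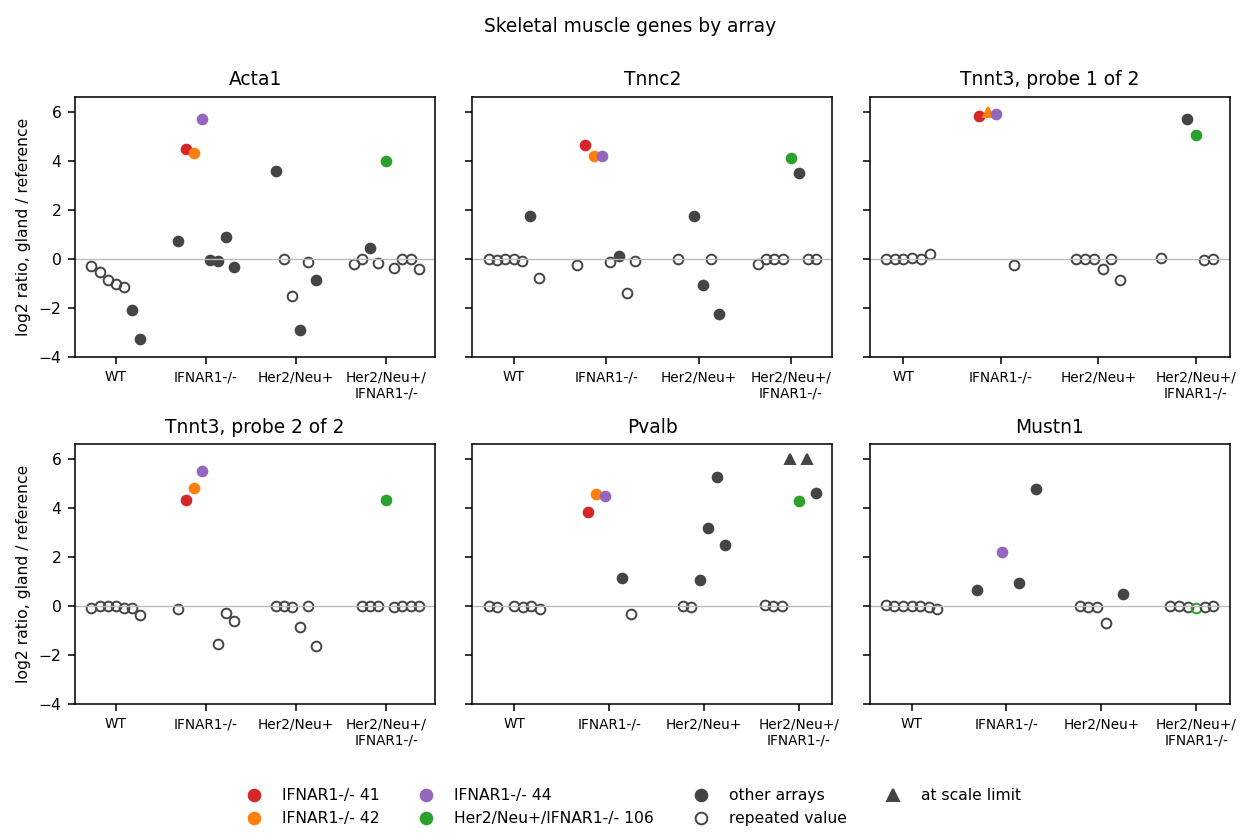
Log2 ratio of gland to reference for each probe of the 5 muscle genes, 1 point per array, with the 4 groups side by side. Filled points are measured, open points are repeated values and triangles lie at the scale limit of 6. The coloured points of IFNAR1-/- 41, 42 and 44 and of Her2/Neu+/IFNAR1-/- 106 lie between 3.98 and 6 for Acta1, Tnnc2 and both Tnnt3 probes.

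Pvalb, on chromosome 15 (78191112 to 78206400), encodes parvalbumin, the calcium buffer of fast fibres, and is also known from inhibitory neurons. It was 3.84 on IFNAR1-/- 41, 4.55 on 42 and 4.47 on 44, and 1.15 on 46, with a repeated -0.34 on 47 and 3 blanks. It was measured on 4 of 6 Her2/Neu+ arrays, against 3 each for Acta1 and Tnnc2 and none for Tnnt3, at 1.05 on 115, 3.17 on 118, 5.25 on 119 and 2.49 on 120. Among Her2/Neu+/IFNAR1-/- arrays it was at the limit of 6 on 105 and sample107, 4.26 on 106 and 4.63 on 108, with 3 repeated values and 2 blanks. All 6 WT values were repeated, -0.11 to -0.01. On the 4 arrays of the highest Pvalb values, 105, sample107, 108 and Her2/Neu+ 119, Acta1 had repeated values alone, so its level there was not measured. Other members were measured high on a pair of them: Tnnc2 at 3.48 on sample107, and Tnnt3 at 5.69 by its first probe on 105. Of the muscle genes outside the rule, Tmod4 was high on 105, Tnni2 at 2.58 on sample107 and Hrc at 2.73 on Her2/Neu+ 119. None of them was high on 108.

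Mustn1, on chromosome 14 (30879257 to 30881610), encodes a small nuclear protein of muscle and bone named for its expression in the musculoskeletal system. Its highest value was 4.77, on IFNAR1-/- 50, an array on which Acta1 was -0.35. It was 2.20 on 44, 0.94 on 46 and 0.65 on 39, and blank on the other 4 IFNAR1-/- arrays, 41 and 42 among them. Her2/Neu+ 120 had 0.49. All 7 WT values and all 6 Her2/Neu+/IFNAR1-/- values were repeated, the latter between -0.09 and -0.01. Mustn1 thus shared with the other members only array 44 as a high array.

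Over the 5 genes, WT glands had 3 measured values and 31 repeated ones. The counts were 23 measured and 9 repeated in IFNAR1-/-, 11 and 17 in Her2/Neu+, and 10 and 29 in Her2/Neu+/IFNAR1-/- glands. A gene by array value was called high where it was measured and lay at least 1 (log2), which is 2-fold, above the highest WT value of that gene; this rule was set after the values had been seen, and WT arrays have no high gene by its construction. On IFNAR1-/- 41 all 4 members with a value were high, against 3.3% of all genes. On IFNAR1-/- 42 it was 4 of 4, against 2.59%, and on IFNAR1-/- 44 it was 5 of 5, against 2.06%. On Her2/Neu+/IFNAR1-/- 106 it was 4 of 5, against 3.57%. The members were chosen on such arrays, so these shares are a description. Across the other 19 arrays outside WT, 0.948% to 8.88% of all genes were high.

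A wider list of 45 other muscle genes, drawn up with results of these data known, had 15 with a probe. On IFNAR1-/- 41, 11 of 15 of these were high, on 42 it was 12 of 14 with a value, on 44 it was 13 of 15 and on Her2/Neu+/IFNAR1-/- 106 it was 10 of 15. No other array had more than 2. Thick filament and thin filament genes took part: Myl1, a fast myosin light chain, was 5.58, 6, 5.56 and 4.74 on arrays 41, 42, 44 and 106. Tnni2 was 3.95, 5.06, 5.86 and 5.10, and Actn3, the Z-disc alpha-actinin of fast fibres, was 4.28, 4.81, 4.63 and 2.91 on these arrays in the same order. Actn3 was a repeated value or blank on every one of the other 26 arrays, none above -0.00.

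Most of the calcium handling and energy genes with a probe showed the same arrays. Cacna1s, the voltage sensor of the muscle fibre membrane, was 2.82, 2.90, 2.59 and 1.76 on 41, 42, 44 and 106, and at most 0.70 elsewhere. Pgam2, the muscle phosphoglycerate mutase of glycolysis, was 4.01, 4.29, 4.27 and 3.64, and at most -0.01 elsewhere. Cox6a2, the muscle and heart form of a cytochrome oxidase subunit, was measured mostly below the reference: it was 1.18, 2.35, 1.71 and 0.29 on these arrays, and -1.69 or lower on all others. Eno3, the muscle enolase, was -0.41, 1.81, 2.16 and 1.20 there, and -1.40 or lower elsewhere, with all 30 values measured. Tnnt1, the slow fibre troponin T, was 0.72, 0.66, 0.47 and -0.39, and its next value was a repeated -0.48 on Her2/Neu+ 114. Tnnc1, the troponin C of slow fibres and heart, had no measured value and no high array.

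Some muscle genes departed from this order. Phka1, a subunit of the kinase that switches on glycogen breakdown, was highest at 5.42 on Her2/Neu+/IFNAR1-/- 104, where no member was high. It was high on IFNAR1-/- 41 and 42 too. Pygm, of the energy metabolism list, was high on 42, 44 and 106 but not on 41. It was also high on Her2/Neu+ 120 and on IFNAR1-/- 46 and 47, at 2.04 and 1.53 on the latter pair. Hrc, of the calcium list, had 41, 42, 44 and 106 as its 4 highest arrays, and was also high at 2.73 on Her2/Neu+ 119. Tmod4, a tropomodulin that caps thin filaments of muscle, was 4.46 on 106, 4.22 on 105, 3.53 on 44 and a repeated -0.08 on 41. Tpm2, a tropomyosin that smooth muscle and myoepithelium also carry, was 0.97 on 42 but -1.03 on 41. Myl1 alone of the 20 muscle genes stood above the reference in every WT gland, from 1.96 to 4.30.

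**Figure D2:**
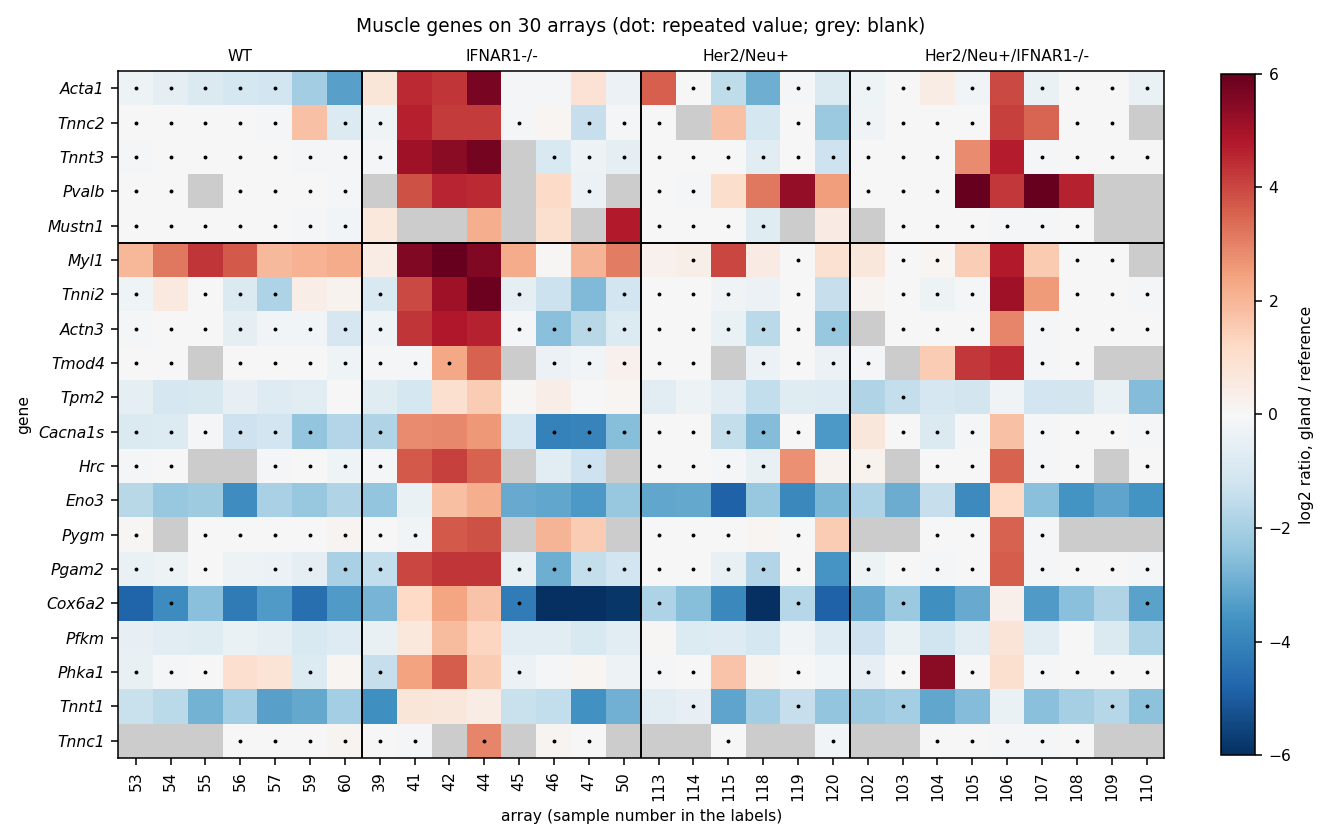
Log2 ratio of 20 muscle genes (rows; the 5 genes of the rule above the line, 15 other muscle genes below) on 30 arrays (columns, by group). Red is above and blue below the reference, a dot marks a repeated value and grey a blank. Columns 41, 42, 44 and 106 are red or lighter blue than the rest of the row for most genes, as for Eno3, where they run from -0.41 to 2.16.

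**Figure D3:**
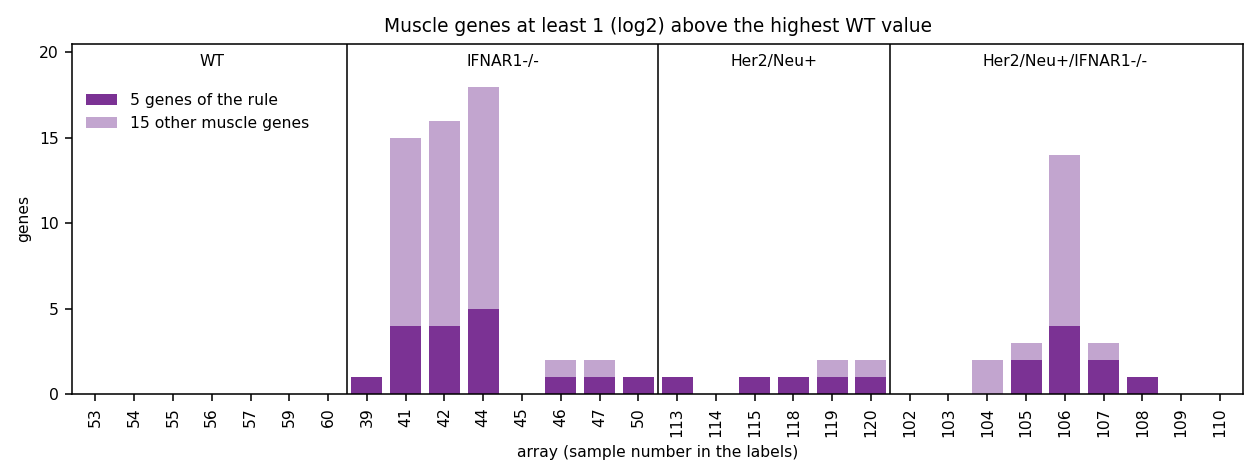
Number of muscle genes at least 1 (log2) above their highest WT value on each array, with the 5 genes of the rule in dark and 15 others in light purple. The bars reach 15, 16, 18 and 14 genes on IFNAR1-/- 41, 42 and 44 and Her2/Neu+/IFNAR1-/- 106, and at most 3 on any other array.

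For 13 of the 20 muscle genes, 3 of them members, the 4 highest arrays were exactly IFNAR1-/- 41, 42 and 44 and Her2/Neu+/IFNAR1-/- 106. These arrays were singled out after the values had been seen. Among all 10345 genes with at least 27 values, 18 (0.174%) had these same arrays as their 4 highest. They were 12 of the 13 muscle genes, since Hrc had too few values, and 6 others: Tpm1, Tmem38a, Jsrp1, Adssl1, Ak1 and Maf1. Adssl1 encodes the muscle isozyme of adenylosuccinate synthase, and Ak1 encodes an adenylate kinase abundant in muscle.

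The genes whose profile came nearest to the members' were ranked by the root mean square difference between profiles after centring, over at least 27 arrays and 10342 genes. A flat profile had a difference of 1.81 (log2) and the median gene 1.96. Tpm1 was nearest at 0.92, followed by Tmem38a at 0.93, Jsrp1 at 0.95, Actn3 at 1.06 and Pgam2 at 1.13. Tpm1 encodes a tropomyosin of striated and smooth muscle, Tmem38a a potassium channel of the sarcoplasmic reticulum and Jsrp1 a protein of the junction between that store and the fibre membrane. Tnni2 followed at 1.15, Pfkm, the muscle phosphofructokinase, at 1.22, and Cacna1s and Cox6a2 at 1.26 each. For 9 of these 10 genes the 4 highest arrays were 41, 42, 44 and 106. The exception was Osbp, an oxysterol-binding protein gene, at 1.15, whose 4 highest arrays were IFNAR1-/- 41 and 46, Her2/Neu+/IFNAR1-/- 106 and WT 59.

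The mean of the members on an array, with each gene centred on its WT median, was 4.79 on 41, 4.89 on 42, 4.69 on 44 and 3.62 on 106. The other 26 arrays ran from -0.65 to 2.03. Lists of other muscle genes split the same way. The energy metabolism list was 2.77 to 4.19 on these arrays against -1.16 to 1.22 on the rest, and the calcium list 3.29 to 4.13 against -1.99 to 1.98. The thin filament and Z-disc list was 2.00 to 4.11 against -0.96 to 0.98. Myl1, the thick filament list's measured gene, was 2.50 to 3.76 against -2.26 to 2.06, and Tnnt1, the single gene of the slow fibre list in the fit, was 1.64 to 2.75 against -1.66 to 1.55. Chrna1, the acetylcholine receptor subunit of muscle that stood alone for the myogenic list, did not follow: it was -1.20 on 44, and its values were repeated on the 3 of these arrays where it had one. Heart and smooth muscle markers did not split this way. The heart list was -0.79 to 1.48 on the 4 arrays against -1.27 to 2.09 on the rest, and heart troponin T, Tnnt2, was a repeated value on all 4. The 1.48 was on array 42. Actc1, another gene of that list, reached 3.19 in IFNAR1-/- glands, where 6 of its 8 values were repeated. The smooth muscle list was -0.65 to 0.78 against -1.54 to 0.77, with 1 of 4 arrays, 44, just above the rest.

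Markers of the gland on these arrays lay within the range of the others. The luminal epithelium list was -1.16 on 41, -1.14 on 42, 0.69 on 44 and 0.05 on 106, against -1.20 to 2.11 on the rest. The white adipocyte list was -0.45 to -0.05 against -0.52 to 0.32, though several of its genes are at the scale limit, as was Cidea, the brown fat list's gene, on all 4. The lists for skin, Schwann cells, tendon, red blood cells, B cells and basal cells also gave no array of the 4 outside the others' range, and the T cell list gave 1, array 106 at 1.03 against at most 0.91. The part of these tissues in the muscle values was not tested. In whole-gland RNA, more muscle cells and more muscle RNA per cell cannot be told apart.

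**Figure D4:**
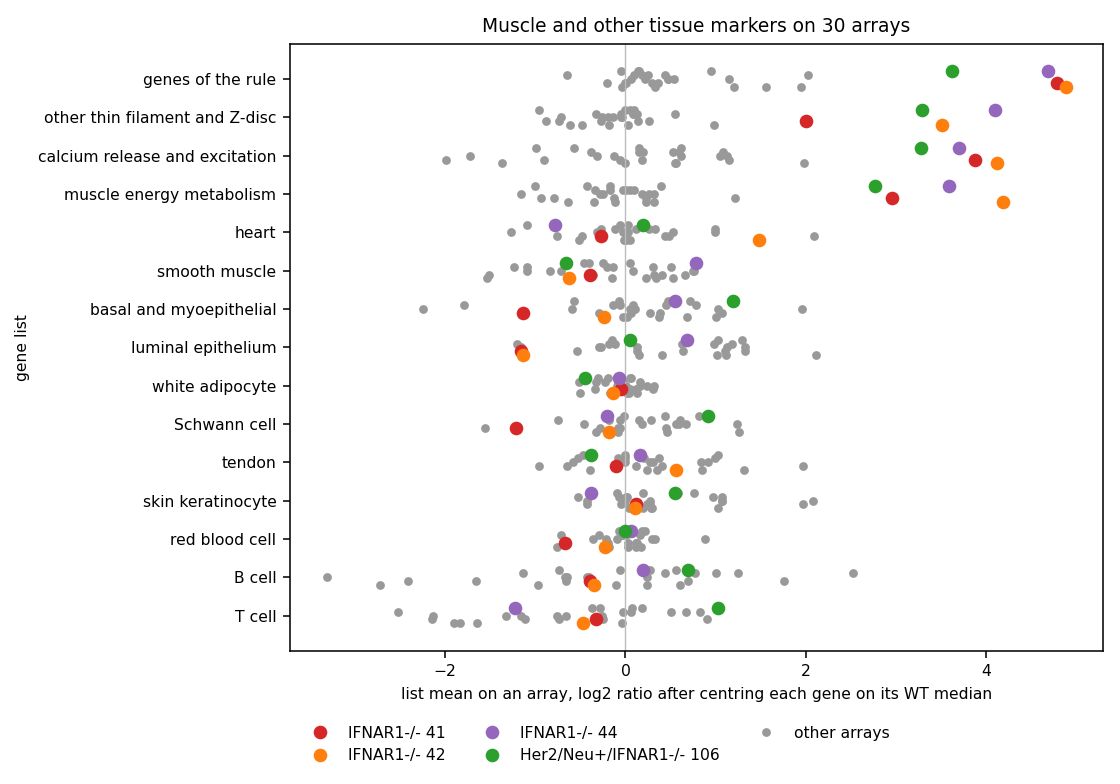
Mean of each gene list on each array (log2 ratio, each gene centred on its WT median), with 1 point per array. The coloured points of IFNAR1-/- 41, 42 and 44 and Her2/Neu+/IFNAR1-/- 106 lie apart in the 4 skeletal muscle lists at the top, from 2.00 to 4.89, and among the other arrays in nearly all lists below.

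The 4 arrays do not share a position that the labels give. Arrays 41 and 42 carry block number 3 and arrays 44 and 106 block number 2. They lie on 4 different slides, as far as slides can be inferred from block numbers and sample order, and each of those slides also holds arrays with at most 3 high muscle genes. Within Her2/Neu+/IFNAR1-/- glands, however, every high value of a member lay on a single inferred slide, that of 105, 106, sample107 and 108. The mean of the members was 1.15 to 3.62 on these arrays and 0.19 to 0.36 on the rest of that group. The part of slide in this was not tested. Array 44 had the fewest repeated values of all arrays, 2639, whereas 41, 42 and 106 had 7567, 7084 and 6932.

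The first comparison set IFNAR1-/- against WT glands, the contrast from which the genes were chosen. The fitted change was 3.28 ± 0.90 (log2, SE) for Acta1, 1.30 ± 0.88 for Tnnc2, 2.08 ± 0.93 for Tnnt3, 2.77 ± 1.20 for Pvalb and 2.17 ± 0.48 for Mustn1. Blanks leave 5 IFNAR1-/- arrays for Pvalb and 4 for Mustn1. None of the 5 passed limma's adjusted p threshold of 0.05, which 0.0262% of all genes passed. Under an unadjusted 0.05 were 4 of 5, against 787 of all 11463 genes. Nothing is read from these counts. The median change was 2.17 for the 5 genes and -0.08 over all genes.

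Without arrays 41, 42 and 44 the change was 1.55 ± 0.79 for Acta1, -0.46 ± 0.73 for Tnnc2, -0.55 ± 0.59 for Tnnt3 and 2.16 ± 0.54 for Mustn1, and Pvalb had too few values to be fitted. The direction of Tnnc2 and Tnnt3 in this comparison therefore rested on those 3 glands, and the median of the 4 remaining genes was 0.54. Those 3 glands held every measured Tnnt3 value of both groups, so the -0.55 compares repeated values and shows no measured reversal. For Tnnc2 the measured values left were 0.10 on IFNAR1-/- 46 and 1.75 on WT 59. All 13 other muscle genes that were tested were higher in IFNAR1-/- glands with all arrays in the fit, by a median of 0.92, and none passed. They were listed with results of these data known. Their changes without arrays 41, 42 and 44 are not given here, so this is no separate evidence of a change across the group.

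The oncogene alone was compared in Her2/Neu+ minus WT. This contrast uses the same WT arrays, with 31 of 34 values repeated, as the contrast from which the genes were chosen, so its p-values are not independent of that choice. The change was 1.01 ± 0.97 (adjusted p = 0.734) for Acta1, -0.42 ± 1.00 (adjusted p = 0.916) for Tnnc2 and -0.29 ± 0.97 (adjusted p = 0.945) for Tnnt3. It was 2.02 ± 1.14 (adjusted p = 0.498) for Pvalb and -0.03 ± 0.45 (adjusted p = 0.991) for Mustn1. Every Tnnt3 value of both groups was repeated, so its change and p-value rest on no measured value. For Mustn1, 7 of 7 WT and 4 of 5 Her2/Neu+ values were repeated. No level is read from these changes. Of the 5 genes, 0 passed in limma, where 0.131% of all genes did. An unadjusted p under 0.05 was found for 0 of 5, against 1383 of all 11463 genes. The median change was -0.03 for the muscle genes and -0.02 over all genes. Of the 13 other muscle genes tested, 5 were higher and 0 passed. Myl1 ran from 1.96 to 4.30 in WT and from -0.02 to 3.99 in Her2/Neu+ glands, a difference of -1.79 ± 0.91 (SE) that did not pass (adjusted p = 0.437).

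Receptor loss on top of the oncogene was compared in Her2/Neu+/IFNAR1-/- minus Her2/Neu+. The genes were chosen from values of these same arrays, so these p-values are not independent of that choice either. Of the values, 17 of 28 in Her2/Neu+ and 29 of 39 in Her2/Neu+/IFNAR1-/- glands were repeated. Every Tnnt3 value of Her2/Neu+ glands and every Mustn1 value of Her2/Neu+/IFNAR1-/- glands was among them. The change was 0.67 ± 0.92 (adjusted p = 0.787) for Acta1, 1.23 ± 0.97 (adjusted p = 0.610) for Tnnc2 and 1.16 ± 0.92 (adjusted p = 0.614) for Tnnt3. It was 1.00 ± 1.10 (adjusted p = 0.724) for Pvalb and 0.02 ± 0.47 (adjusted p = 0.989) for Mustn1. Again 0 of 5 passed in limma, against 0.0785% of all genes, and 0 were under an unadjusted 0.05, against 1280 of all 11463 genes. The median was 1.00 for the muscle genes and 0.11 over all genes. Leaving out array 106 beside IFNAR1-/- 41, 42 and 44 gave 0.21 ± 0.62 for Acta1, 0.77 ± 0.62 for Tnnc2 and 0.41 ± 0.25 for Tnnt3. Of the 13 other muscle genes tested, 10 were higher and 0 passed, with a median of 0.92.

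Her2/Neu+/IFNAR1-/- minus IFNAR1-/- uses the glands on which the genes were chosen, so it is given as values. The change was -1.60 ± 0.85 for Acta1, -0.49 ± 0.85 for Tnnc2, -1.21 ± 0.88 for Tnnt3, 0.25 ± 1.16 for Pvalb and -2.18 ± 0.50 for Mustn1. Mustn1 was the 1 gene of 5 past the threshold, where 1.31% of all genes passed, and nothing is read from it. It set 4 measured IFNAR1-/- values against 6 repeated values near 0. Of the 13 other muscle genes tested, 2 were higher, and 1, Tpm2, passed with a change of -1.36 ± 0.31. Without arrays 41, 42 and 44, Acta1 was 0.13 ± 0.76, Tnnc2 1.27 ± 0.71 and Tnnt3 1.17 ± 0.58, each on the other side of 0, while Mustn1 was -2.16 ± 0.56 and no longer passed. The IFNAR1-/- values of Tnnt3 left in that fit were all repeated, and the sole measured one of Tnnc2 was 0.10 on array 46. In the interaction, the difference between both receptor-loss contrasts, 0 of 5 genes passed, against 2 of all 11463 genes, and nothing is read from it. No inferred slide holds both groups of a pairwise contrast, so none of these contrasts can be made within a slide. Each group lies on more than a single inferred slide, yet group and slide cannot be fully told apart.

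**Figure D5:**
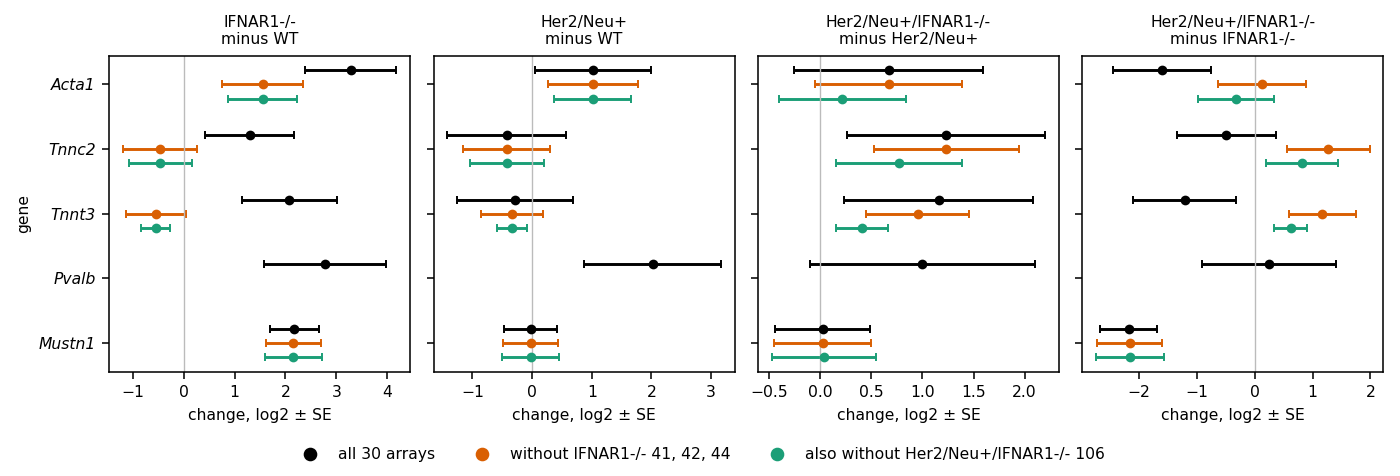
Fitted change (log2, points) and SE (bars) of the 5 muscle genes in 4 contrasts, with all 30 arrays and without the arrays named in the key. In IFNAR1-/- minus WT, Tnnt3 goes from 2.08 with all arrays to -0.55 without 41, 42 and 44, whereas Mustn1 stays at 2.16 or 2.17. The Tnnt3 values behind the -0.55 are all repeated. Pvalb is drawn with all arrays alone.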

How the data were processed

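Gland and reference RNA were hybridised to 2-colour Agilent arrays, and the value table holds the log2 ratios that the authors deposited for 20896 probes on 30 arrays. The log base was inferred from values that stop at 6, and the dyes in the labels gave the direction. Background correction, normalization and the rule behind blank and repeated values are not given in the sources used here. The table holds no intensities, so signal over background is unknown, and precision is limited by how many arrays there are.

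The platform annotation gave 17376 probes 1 symbol and 3520 none. In each group a probe had to have values on 50% or more of the arrays, and probes were averaged per gene, and repeated values were kept. One fit over 30 arrays was made with limma 3.58.1 in R 4.3.3 (lmFit, eBayes, two-sided, Benjamini-Hochberg over 11463 genes). It was checked on simulated data. The genes, the 19 lists and the naming rule (the 5 members, fixed list genes and the 10 nearest profiles) were chosen with earlier results of these data known. Alternatives covered normalization, filters, probe choice, repeated values, array weights, block number, slide, groups in the fit and arrays left out.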

Additional observations from a re-analysis of the deposited data

Results flagged for a closer look

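A sample far from the rest of its group was looked for in 24 groups of values, and 4 were found; chance gives about 1 in 20. Acta1 on Her2/Neu+/IFNAR1-/- 106 was 3.98, the highest of 9 values, with the next at 0.43. Tnnc2 on WT 59 was 1.75, the highest of 7 and the sole measured value of its group. Pvalb on WT 60 was -0.11, the lowest of 6 values that were all repeated. The mean of the members on WT 60 was -0.65, the lowest of 7, with the next at -0.04, and Acta1 on that array was -3.27. The 3 high IFNAR1-/- arrays were not found this way, since each has the others near it.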

How the results depend on the processing

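No paired analysis was possible because the sample numbers are not shared between groups. No change of a muscle gene that passed the threshold turned its direction under an alternative. Counts of genes past the threshold are given for the contrasts in the order of the report, from IFNAR1-/- minus WT to Her2/Neu+/IFNAR1-/- minus IFNAR1-/-, where all arrays gave 3, 15, 9 and 150. Array weights gave 25, 33 and 384 in the first, the next and the last, and 1 muscle gene in the first (Mustn1, 2.48, adjusted p = 0.0240, against 0.0240 to 0.531 over its alternatives). Slide as a random block gave 1, 3, 5 and 13. The compared groups alone gave 6, 4 and 23 in all but Her2/Neu+ minus WT, and block number as a covariate gave 50 in the last. Quantile normalization gave 24 in Her2/Neu+ minus WT. With repeated values missing, Her2/Neu+ minus WT gave 65 and the last 276, and with limit values kept 38 and 261; no muscle gene could then be tested. With at least 2 values per group kept as well, the counts were 29, 17 and 375 in the last 3, and Acta1 alone was tested, with changes of 4.64, 2.61, 2.28 and 0.26, the last on the other side of 0 from its -1.60 with all values. Without IFNAR1-/- 41, 42 and 44 the first count was 6, and without 106 too it was 5. The 1 muscle gene of the last contrast, Mustn1, became 0 under the block covariate, the slide block, the compared groups alone and both exclusions above. Mustn1 was not tested under the filter for a value on all 30 arrays, nor in any setting with repeated values missing. Without 41, 42 and 44 the median of the muscle genes in the last contrast was 0.65. The cause of these shifts was not tested.

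Leaving out 1 array at a time gave 2 to 5, 3 to 131, 7 to 23 and 38 to 325 genes. It gave 131 without Her2/Neu+ 115 and 3 without 118. No muscle gene passed in the first 3 contrasts, and 0 to 1 did in the last. The median change of the muscle genes ran from 1.76 to 2.76, -0.04 to 0.36, 0.67 to 1.26 and -1.69 to -0.33. The alternatives without repeated values with a limit rule, the one with array 106 and the rule for high values were chosen after seeing the data.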
